A study of Mus musculus with 6 samples.

Results

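A set of 9 transcription factors that set or mark the identity of dendritic cells and macrophages (Spi1, Cebpa, Cebpb, Klf4, Zbtb46, Id2, Batf, Batf3 and Runx3) were followed in dendritic cells grown from mouse bone marrow. They were chosen by gene name, as lineage factors outside the interferon regulatory factor family, and make up 9 of the 23398 genes in the deposited table. All 9 were expressed highly enough to be tested, among 10682 tested genes. The cells had been given Ca(OH)2 (calcium hydroxide) nanoparticles for 12 hours in 3 libraries, or vehicle for 12 hours in the other 3. Both groups were grown in DMEM with serum and antibiotics. The growth factors used to obtain the cells, and the strain, sex and age of the mice, are not given in the sources used here. Nothing in the labels says that the 3 libraries of a group came from separate cultures or animals, so every p-value measures only the spread between these libraries, which may be technical.

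Myeloid identity is set by a few transcription factors that bind DNA together and in competition. PU.1, the product of Spi1, opens enhancers across all myeloid lineages, and C/EBP alpha acts with it early in myeloid commitment. C/EBP beta is a C/EBP form induced in inflammation. Among the dendritic cell factors, Zbtb46 marks conventional dendritic cells and their precursors, Id2 and Batf3 are needed for the cross-presenting type 1 subset, and Klf4 is needed for part of the type 2 subset and for monocytes. Batf pairs with JUN proteins at AP-1 sites and can stand in for Batf3, and Runx3 acts in skin and mucosal dendritic cells and in the response to TGF-beta.

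The libraries held 17277943 to 21975538 recovered reads, and each factor was read by 107 to 15930 of them in a library. Vehicle libraries correlated at 0.9926 to 0.9938 (Pearson's r of log2(FPKM + 1) across genes), and nanoparticle libraries 2 and 3 at 0.9895. Nanoparticle library 1 stood apart from these, with r of 0.942 and 0.928, so the change of each factor is also given without it. All 36 genes named from the lists below by smallest adjusted p kept their direction and call without it, with log2 changes 0.756 to 1.28 times those over all 6 libraries. Values are FPKM, fragments per kilobase of transcript scaled between libraries, and each log2 change compares nanoparticle with vehicle after 1 was added to the FPKM. In all 10682 genes, 3550 passed an adjusted p of 0.05 (limma, Benjamini-Hochberg), 1817 of them higher with nanoparticles and 1733 lower. The labelled cell type was checked on Itgax, the gene of CD11c, at 449 ± 7.16 FPKM in vehicle (SD, n = 3), and on Lyz2, myeloid lysozyme, at 14696 ± 699. Neither separates dendritic cells from macrophages. Of genes that do, the macrophage markers C1qb (283 ± 37.0 FPKM), Csf1r (158 ± 0.390) and Adgre1 (66.1 ± 2.81) were high in vehicle. Xcr1 of type 1 dendritic cells (0.144 ± 0.0479) was near 0 and Flt3 of dendritic cell precursors was at most 0.00776. Other genes of the lists below went the other way. The type 1 markers Naaa (99.4 ± 2.34) and Clec9a (6.59 ± 0.226) and the dendritic cell core gene Napsa (70.6 ± 7.94) were expressed. The macrophage core gene Arsg was at 0.520 ± 0.0204, but 30 of the 31 genes of that list were expressed highly enough to be tested. In the conventional dendritic cell core, 18 of 25 were. These genes thus do not settle which of the cell types was present.

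Cebpb, Id2 and Batf rose, Klf4 and Zbtb46 fell, and Spi1, Batf3, Runx3 and Cebpa did not pass the test. Thus 5 of the 9 factors passed, 3 higher and 2 lower, where 33.2% of all tested genes passed, 17% higher and 16.2% lower. The groups did not overlap for 6 of the 9 factors, the 5 named and Cebpa, against 52.1% of all tested genes. Of these, 3 were higher and 3 lower, against 25.9% and 26.2%. When nanoparticle library 1 was left out, all 9 passed (5 higher and 4 lower), where 64.8% of all tested genes did. Leaving out vehicle library 1, 2 or 3 left 3 of the 9 past the threshold each time, Batf, Cebpb and Klf4, where 20.8%, 20.5% and 20% of all tested genes passed. Without nanoparticle library 2 there were 4 (26.3% of all) and without library 3 there were 6 (30.4%), while weighting the libraries by their fit gave 9 (81.6%). The median log2 change of the 9 factors was 0.12, and that of all tested genes was -0.0010. The median of the 9 was 0.46 without nanoparticle library 1, and it turned to -0.35 with an equal sum of FPKM, -0.10 with the upper quartile, -0.41 with quantile normalization and -0.23 with read totals. That of all tested genes was 0.021 without this library, and -0.38, -0.17, -0.079 and -0.28 with these 4 scalings. In a bulk sample, fewer cells of a type and less RNA per cell cannot be told apart.

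**Figure D1:**
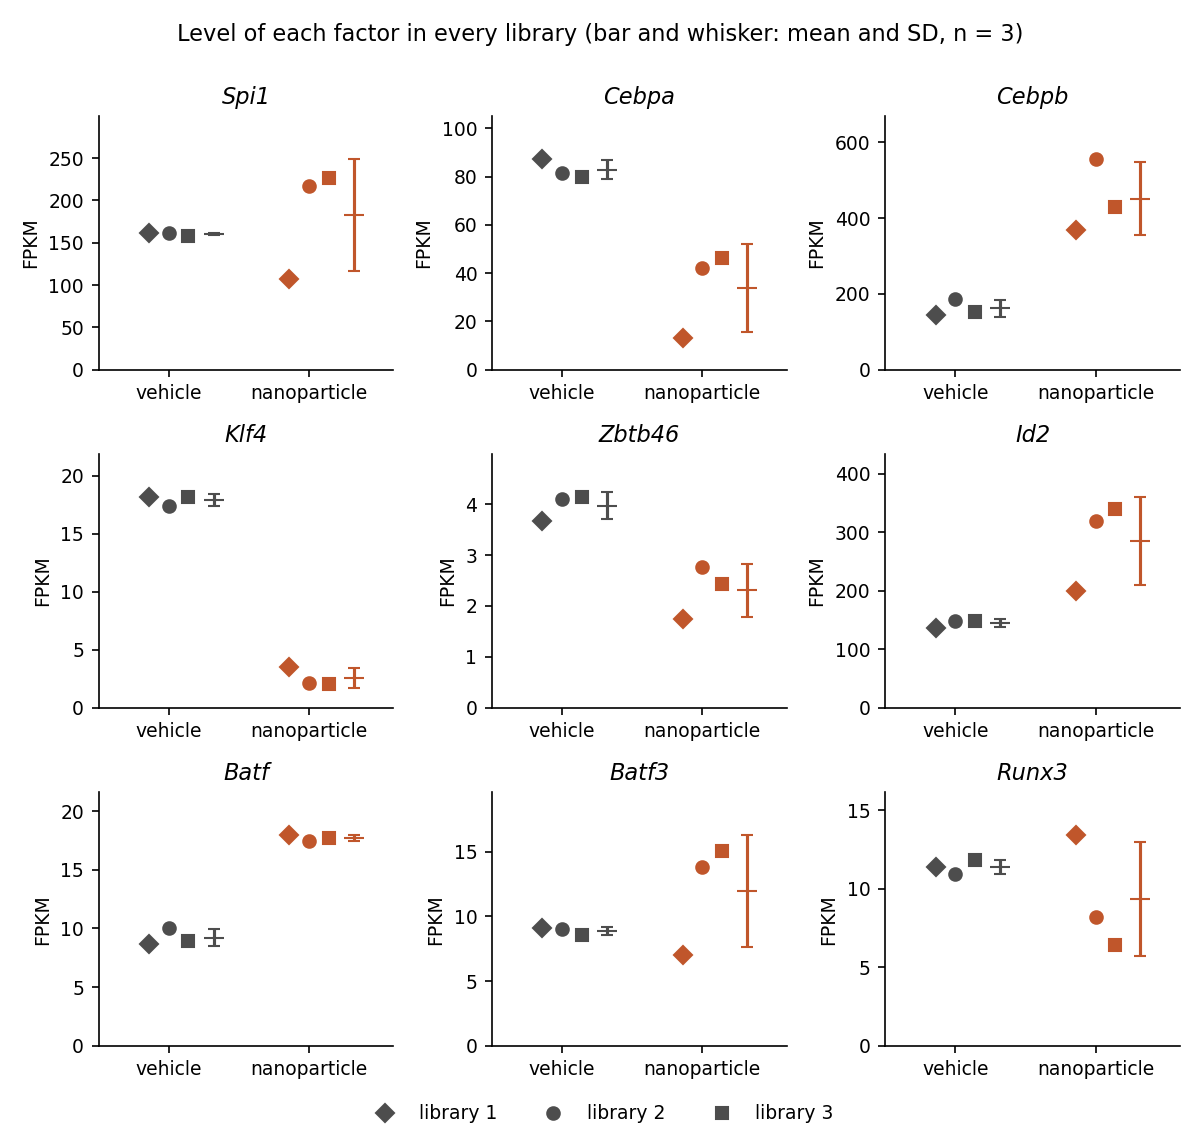
FPKM of each of the 9 factors (vertical axes, each from 0) in the 3 vehicle and 3 nanoparticle libraries, with the mean and SD of each group beside the points. Nanoparticle library 1 (diamond) lies below the vehicle libraries for Spi1 and Batf3 and above them for Runx3, on the other side from nanoparticle libraries 2 and 3.

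In the vehicle libraries the levels, which are per length and so comparable between genes, ran from a few FPKM to well above that. Cebpb (162 ± 22.4 FPKM), Spi1 (160.3 ± 1.72) and Id2 (144 ± 6.68) were the highest, with Cebpb and Spi1 not separable by their ranges. Cebpa followed at 82.9 ± 4.08, then Klf4, Runx3, Batf and Batf3 between 8.90 and 17.9, of which the ranges of Batf and Batf3 overlapped. Zbtb46 was the lowest at 3.97 ± 0.268. With nanoparticles, Cebpb came first, Id2 and Spi1 had overlapping ranges, Cebpa and Batf overlapped, Batf3 and Runx3 overlapped, and Klf4 had moved from 5th to 8th, where its range overlapped that of Zbtb46. In nanoparticle libraries 2 and 3 alone, Klf4 was 9th and no neighbouring ranges overlapped.

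Spi1 encodes PU.1 (ENSMUSG00000002111, GRCm38 chromosome 2, 91082390 to 91115756, plus strand). It read 161, 161 and 158 FPKM in vehicle and 107, 217 and 226 in nanoparticle libraries 1, 2 and 3. The nanoparticle libraries thus lay on both sides of a narrow vehicle range, and the groups overlapped. The log2 change was 0.12 (SE 0.296, 95% interval -0.60 to 0.83, limma adjusted p = 0.798). It was 0.46 without nanoparticle library 1 (limma adjusted p = 0.000255). Its sign turned when the libraries were scaled to an equal sum of FPKM (-0.35), by the upper quartile (-0.10), by quantile normalization (-0.44) or by recovered read totals (-0.23).

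The only tested SPI relative, Spic, a factor of red pulp macrophages that binds the same DNA motif as PU.1, went from 0.0815 ± 0.0142 to 2.5 ± 1.06 FPKM (log2 change 1.65, limma adjusted p = 0.00179, and 1.42 without nanoparticle library 1). It was below 1 FPKM in every vehicle library and entered the test only through the nanoparticle libraries, so a fall could not have been called. Of 22 genes listed as PU.1 targets, all tested, 7 rose, 3 fell and 12 did not pass. Among all tested genes 17% rose and 16.2% fell. The median log2 change of the 22 was -0.00038 (0.13 without nanoparticle library 1). Csf3r, the receptor for granulocyte colony-stimulating factor, rose by 1.71, and was the 1 target that entered only through the nanoparticle libraries. Fcer1g, the common Fc receptor gamma chain, rose by 0.93 and Ncf4, a subunit of the phagocyte NADPH oxidase, by 0.92. Without nanoparticle library 1 the split was 10 higher and 8 lower, where 64.8% of all tested genes passed. It was 4 higher and 10 lower with an equal sum of FPKM and 3 and 13 with quantile normalization, under which Fcer1g no longer passed. All tested genes split 881 higher and 4307 lower with an equal sum of FPKM and 1556 and 2245 with quantile normalization.

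The 2 C/EBP factors lay on opposite sides of their vehicle levels. Cebpb (ENSMUSG00000056501, GRCm38 chromosome 2, 167688915 to 167690418, plus strand) read 145, 187 and 153 FPKM in vehicle and 369, 557 and 428 with nanoparticles. Every nanoparticle library was above every vehicle library, and the mean was 2.79-fold higher (162 ± 22.4 to 452 ± 96.1 FPKM). Its log2 change of 1.46 (SE 0.197, limma adjusted p = 0.00236) passed under all 18 alternatives, and was 1.599 without nanoparticle library 1. Of the exonic bases of Cebpb, 312 (20.7%) are shared with Tmem189 on the opposite strand, and the strand used in counting is not given in the sources used here, so the Cebpb values are uncertain. Tmem189 read 55.2 to 58.1 FPKM in vehicle and 60.3 to 72.5 with nanoparticles.

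Cebpa (ENSMUSG00000034957, GRCm38 chromosome 7, 35119293 to 35121928, plus strand) read 87.5, 81.5 and 79.7 FPKM in vehicle and 13.0, 42.0 and 46.3 with nanoparticles. All 3 nanoparticle libraries were below the vehicle range, and nanoparticle library 1 was 3.40-fold below the mean of the other two. The log2 change was -1.46 (SE 0.459, 95% interval -2.57 to -0.35, limma adjusted p = 0.0525), which missed the threshold. It was -0.90 without nanoparticle library 1 (limma adjusted p = 6.8e-05), and without nanoparticle library 3 it was -1.77 (limma adjusted p = 0.0404). It passed with each of the other scalings, at -1.92 with an equal sum of FPKM, -1.67 with the upper quartile, -1.89 with quantile normalization and -1.80 with read totals.

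Within each library, Cebpb over Cebpa was 1.65, 2.29 and 1.92 in vehicle and 28.5, 13.3 and 9.26 with nanoparticles. Multiplying a library by a constant does not move such a ratio, though quantile normalization does. The lowest nanoparticle ratio was several times the highest vehicle ratio. The mean log2 ratio went from 0.95 ± 0.237 to 3.92 ± 0.828 (SD, n = 3), a difference of 2.97 (exact permutation test, two-sided, p = 0.1, adjusted p = 0.12 over 6 ratios), and 2.52 without nanoparticle library 1. With 3 libraries against 3, 0.1 is the smallest p this test can give. Spi1 over Cebpa was 1.84, 1.98 and 1.99 in vehicle and 8.24, 5.16 and 4.89 with nanoparticles (log2 difference 1.61, exact permutation p = 0.1, adjusted p = 0.12, and 1.38 without nanoparticle library 1).

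Of the 3 other tested C/EBP genes 1 passed, Ddit3, which encodes the stress-induced C/EBP homologous protein and rose from 6.86 ± 0.571 to 26.0 ± 15.0 FPKM (log2 change 1.65, limma adjusted p = 0.0133, and 1.23 without nanoparticle library 1). It lost the call without vehicle library 2 or 3, the higher limma adjusted p being 0.0550. Of 14 genes listed as C/EBP targets, 12 were tested, of which 9 rose and 3 did not pass, where 17% of all tested genes rose. However, 6 of the 9 (Csf3, Il12b, Il6, Lcn2, Nos2 and Ptgs2) were below 1 FPKM in every vehicle library and entered the test only through the nanoparticle libraries, so they had to be higher there. Of the 6 that reached 1 FPKM in both groups, 3 rose and 3 did not pass. The median log2 change of 5.26 over the 12 is therefore set largely by the filter. It is 5.01 without nanoparticle library 1, and the median log2 ratio of means is 7.12 with Csf3 and Il6, at no more than 3 reads in any vehicle library, at their lower bound. Lcn2, the siderophore-binding lipocalin, rose from 0.234 ± 0.102 to 50.4 ± 3.45 FPKM, and Il12b, the p40 chain of IL-12, from 0.456 ± 0.176 to 222 ± 71.0. Without nanoparticle library 1, 11 of the 12 rose, where 3660 of all 10682 tested genes rose and 3263 fell. The 11 include the 6 that had to be higher, so this count too is set in part by the filter.

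**Figure D2:**
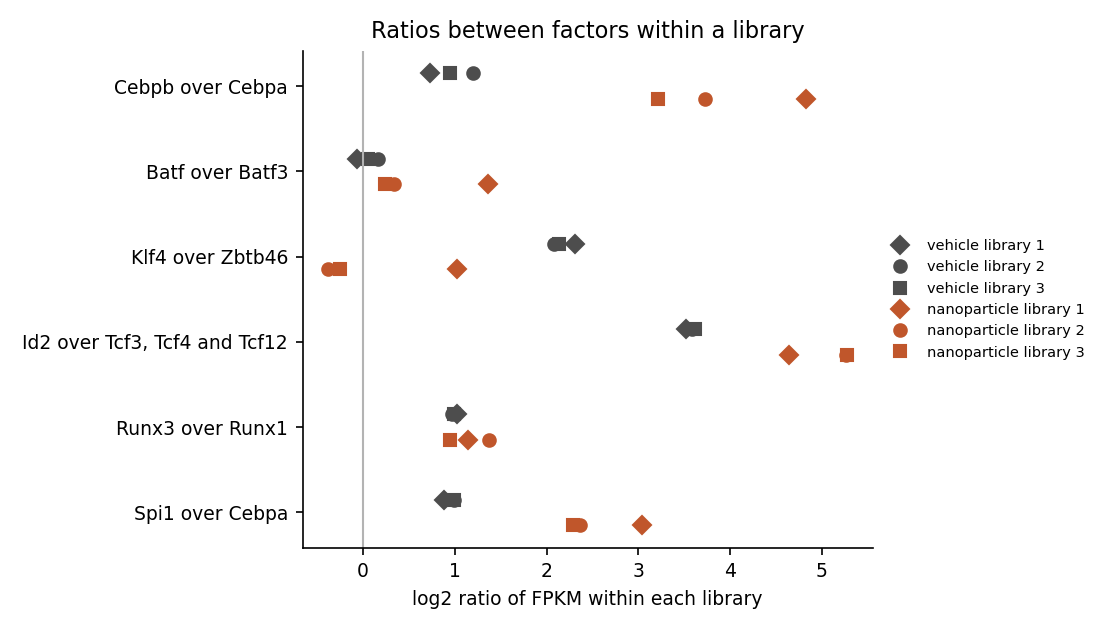
Log2 ratio of FPKM between factors within each library (horizontal axis), vehicle libraries in grey and nanoparticle libraries in orange. The nanoparticle libraries lie apart from the vehicle libraries for 5 of the 6 ratios, with Runx3 over Runx1 overlapping.

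Klf4, a zinc finger factor of monocytes and type 2 dendritic cells, had the lowest log2 change of the 9 (ENSMUSG00000003032, GRCm38 chromosome 4, 55527143 to 55532466, minus strand). It read 18.2, 17.4 and 18.2 FPKM in vehicle and 3.52, 2.12 and 2.03 with nanoparticles. The highest nanoparticle value was far below the lowest vehicle value, and the mean was 7.02-fold lower (17.9 ± 0.487 to 2.55 ± 0.834 FPKM). The log2 change of -2.44 (SE 0.170, limma adjusted p = 0.000233) was the 28th largest decrease among all 10682 tested genes and passed under all 18 alternatives, with values from -2.86 to -2.33, and of -2.62 without nanoparticle library 1.

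Of 8 other tested KLF genes, 1 rose and 4 fell. Klf6, induced in activated macrophages, rose from 64.7 ± 2.67 to 124 ± 25.4 FPKM (log2 change 0.91, limma adjusted p = 0.0069, and 0.75 without nanoparticle library 1), but it lost the call with an equal sum of FPKM and with quantile normalization. Klf13 fell from 14.6 ± 0.821 to 8.56 ± 0.601 FPKM (log2 change -0.71, limma adjusted p = 0.00267). Klf4 over Zbtb46 was 4.97, 4.23 and 4.39 in vehicle and 2.03, 0.770 and 0.836 with nanoparticles. Klf4 was thus below Zbtb46 in nanoparticle libraries 2 and 3 and above it in the other 4 libraries (log2 difference -2.05, exact permutation p = 0.1, adjusted p = 0.12, and -2.49 without nanoparticle library 1).

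Zbtb46, a zinc finger repressor that marks conventional dendritic cells, lies on GRCm38 chromosome 2, 181387762 to 181459426, minus strand (ENSMUSG00000027583). It read 3.66, 4.10 and 4.15 FPKM in vehicle and 1.73, 2.76 and 2.42 with nanoparticles. All nanoparticle values were below all vehicle values (3.97 ± 0.268 to 2.30 ± 0.521 FPKM). The log2 change was -0.60 (SE 0.141, limma adjusted p = 0.0191), and -0.47 without nanoparticle library 1 (limma adjusted p = 0.0035). The call was lost when any one vehicle library was left out, with limma adjusted p from 0.0559 to 0.0813, and with no filter on low values (0.0508).

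Of 25 genes listed as the conventional dendritic cell core, 18 were tested. Of these, 7 rose and 3 fell, against 17% and 16.2% of all tested genes, with a median log2 change of 0.31. Ccr7, the receptor that guides mature dendritic cells to lymph nodes, rose from 2.29 ± 0.469 to 112 ± 10.5 FPKM (log2 change 5.11). Traf1, an adaptor of TNF receptors, rose by 3.53, Gpr132, a lipid-sensing receptor, rose by 1.79, and Ap1s3, an adaptor subunit of vesicle coats, fell by 1.15. The split was 10 higher and 5 lower without nanoparticle library 1 (median 0.47), where 64.8% of all tested genes passed. It turned to 3 higher and 7 lower with an equal sum of FPKM (median -0.13) and to 4 and 7 with read totals (-0.01). It was even at 5 and 5 with the upper quartile and at 4 and 4 with quantile normalization. All tested genes moved the same way, to 881 higher and 4307 lower with an equal sum of FPKM, 1108 and 3617 with read totals, 1318 and 2720 with the upper quartile and 1556 and 2245 with quantile normalization. Flt3, the growth factor receptor of dendritic cell precursors, stayed below the filter at 0.0294 to 0.0793 FPKM with nanoparticles.

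Id2, an inhibitor that binds E proteins and keeps them from DNA, lies on GRCm38 chromosome 12, 25093799 to 25097140, minus strand (ENSMUSG00000020644). It read 137, 148 and 149 FPKM in vehicle and 199.8, 319 and 339 with nanoparticles. The groups were apart, and nanoparticle library 1 was the nearest to vehicle. The mean went from 144 ± 6.68 to 286 ± 75.2 FPKM, and the log2 change was 0.94 (limma SE 0.22, adjusted p = 0.0187) and 1.18 without nanoparticle library 1 (limma adjusted p = 1.4e-05). The call was lost without any one vehicle library or without nanoparticle library 2 (limma adjusted p from 0.0672 to 0.0784). It was also lost with quantile normalization (0.37, limma adjusted p = 0.0910) and with read totals (0.60, limma adjusted p = 0.0555).

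Of 4 other tested genes of the ID and E protein group, 3 fell and 1 did not pass. Id1, an inhibitor of the same kind, fell from 18.2 ± 1.71 to 4.68 ± 2.63 FPKM (log2 change -1.87, limma adjusted p = 0.00905, and -1.46 without nanoparticle library 1). Tcf3, an E protein, fell by 0.57 on the log2 scale, and Tcf12, another, fell by 0.48. Both lost the call without any one vehicle library, and Tcf12 also without nanoparticle library 2 or 3 and with no filter. The ratio of Id2 to the sum of the E proteins Tcf3, Tcf4 and Tcf12 was 11.5, 12.0 and 12.3 in vehicle and 24.9, 38.3 and 38.6 with nanoparticles. These groups were apart (log2 difference 1.48, exact permutation p = 0.1, adjusted p = 0.12), also without nanoparticle library 1 (1.69).

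Batf, an AP-1 factor without a transactivation domain, lies on GRCm38 chromosome 12, 85686669 to 85709087, plus strand (ENSMUSG00000034266). It read 8.71, 10.1 and 8.89 FPKM in vehicle and 17.99, 17.5 and 17.8 with nanoparticles. Its nanoparticle libraries lay within a narrow range, library 1 included (9.23 ± 0.745 to 17.7 ± 0.249 FPKM). The log2 change of 0.88 (SE 0.0961, limma adjusted p = 0.00108) passed under all 18 alternatives, and was 0.87 without nanoparticle library 1.

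Batf3, the related factor required for type 1 dendritic cells (ENSMUSG00000026630, GRCm38 chromosome 1, 191097847 to 191108945, plus strand), read 9.15, 9.0 and 8.55 FPKM in vehicle and 7.02, 13.8 and 15.1 with nanoparticles. As with Spi1, library 1 was below vehicle and libraries 2 and 3 above, and the groups overlapped (8.90 ± 0.312 and 12.0 ± 4.34 FPKM). The log2 change was 0.33 (SE 0.266, 95% interval -0.32 to 0.97, limma adjusted p = 0.392), 0.64 without nanoparticle library 1 (limma adjusted p = 0.000276) and -0.10 with an equal sum of FPKM. Batf over Batf3 was 0.952, 1.12 and 1.04 in vehicle and 2.56, 1.26 and 1.18 with nanoparticles. The log2 difference of 0.59 (exact permutation p = 0.1, adjusted p = 0.12) was 0.24 without nanoparticle library 1.

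Of 4 other tested BATF and JUN genes, 2 rose and 2 did not pass. Batf2, which can also replace Batf3 in activated cells, went from 2.56 ± 0.183 to 14.2 ± 3.57 FPKM (log2 change 2.07, limma adjusted p = 0.000418). Junb, a JUN protein that pairs with BATF factors, went from 80.2 ± 2.74 to 238 ± 10.2 FPKM (log2 change 1.55, limma adjusted p = 0.000225). Of 12 markers of type 1 dendritic cells, 7 were tested, 2 rose and 5 fell, against 17% and 16.2% of all tested genes. The split was the same without nanoparticle library 1, where 64.8% of all tested genes passed. Itgae, the integrin CD103, fell by 1.42 and Wdfy4, needed for cross-presentation, fell by 1.47, whereas the uptake receptor Ly75 rose by 1.98 and the RNA sensor Tlr3 by 1.22. The median log2 change of the 7 was -1.16, and -0.75 without nanoparticle library 1. Itgae was below 1 FPKM in every nanoparticle library and entered the test only through vehicle, so a rise could not have been called. Tlr3 lost its call without vehicle library 3, and with an equal sum of FPKM, which left 1 higher and 5 lower. All tested genes split 881 higher and 4307 lower with that scaling.

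Runx3, a RUNT-domain factor (ENSMUSG00000070691, GRCm38 chromosome 4, 135120652 to 135177990, plus strand), read 11.4, 10.9 and 11.8 FPKM in vehicle and 13.4, 8.18 and 6.41 with nanoparticles. Here library 1 was above the vehicle range and libraries 2 and 3 below it. The log2 change was -0.31 (SE 0.241, 95% interval -0.90 to 0.27, limma adjusted p = 0.365), and -0.58 without nanoparticle library 1 (limma adjusted p = 0.00254). The ratio of Runx3 to its relative Runx1 was 2.03, 1.96 and 1.99 in vehicle and 2.21, 2.59 and 1.92 with nanoparticles, and the groups overlapped (log2 difference 0.16, exact permutation p = 0.4, adjusted p = 0.4, with the same 0.16 without nanoparticle library 1). Of 3 other tested RUNX genes only Cbfb, the shared partner of RUNX proteins, passed. It fell from 37.3 ± 0.198 to 22.8 ± 5.09 FPKM (log2 change -0.71, limma adjusted p = 0.0229, and -0.52 without nanoparticle library 1), a call lost without any one vehicle library (highest limma adjusted p = 0.0844).

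**Figure D3:**
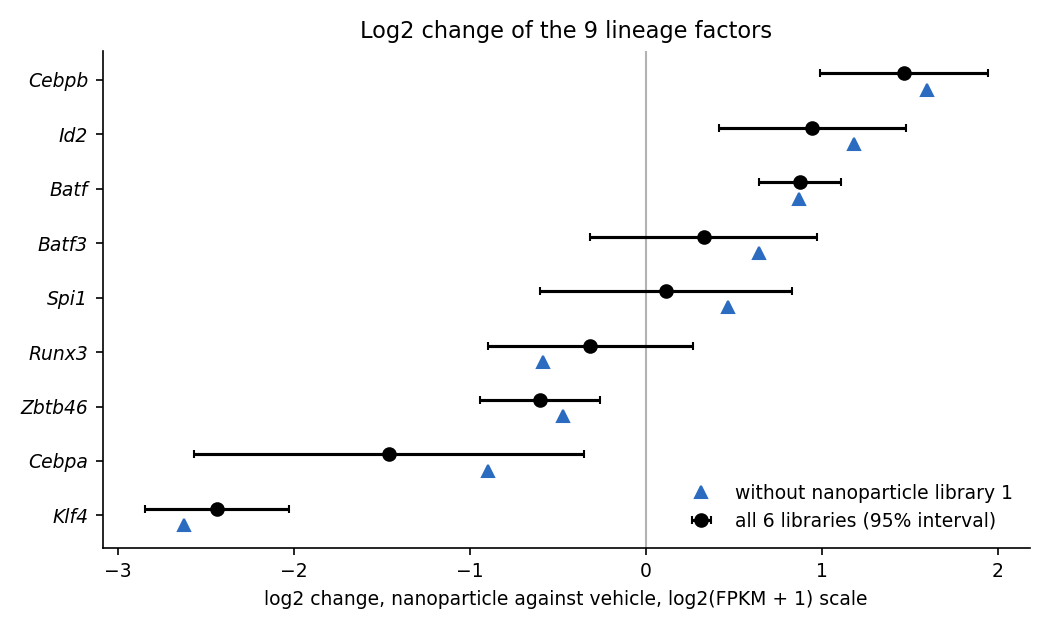
Log2 change of the 9 factors on the log2(FPKM + 1) scale (horizontal axis), with the 95% interval over all 6 libraries (black, limma) and the value without nanoparticle library 1 (blue triangles). Leaving that library out moved Spi1 from 0.12 to 0.46, Batf3 from 0.33 to 0.64, Cebpa from -1.46 to -0.90 and Runx3 from -0.31 to -0.58.

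Over the 6 families, 23 of 28 listed relatives were tested, of which 5 rose, 8 fell and 10 did not pass. Among all tested genes 17% rose and 16.2% fell. In the ID group Id2 rose and Id1 fell, and in the KLF group Klf6 rose and Klf4 fell. The split was 7 higher and 11 lower without nanoparticle library 1, where 64.8% of all tested genes passed, and 4 higher and 14 lower with an equal sum of FPKM. That scaling moved the median of all genes to -0.38.

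**Figure D4:**
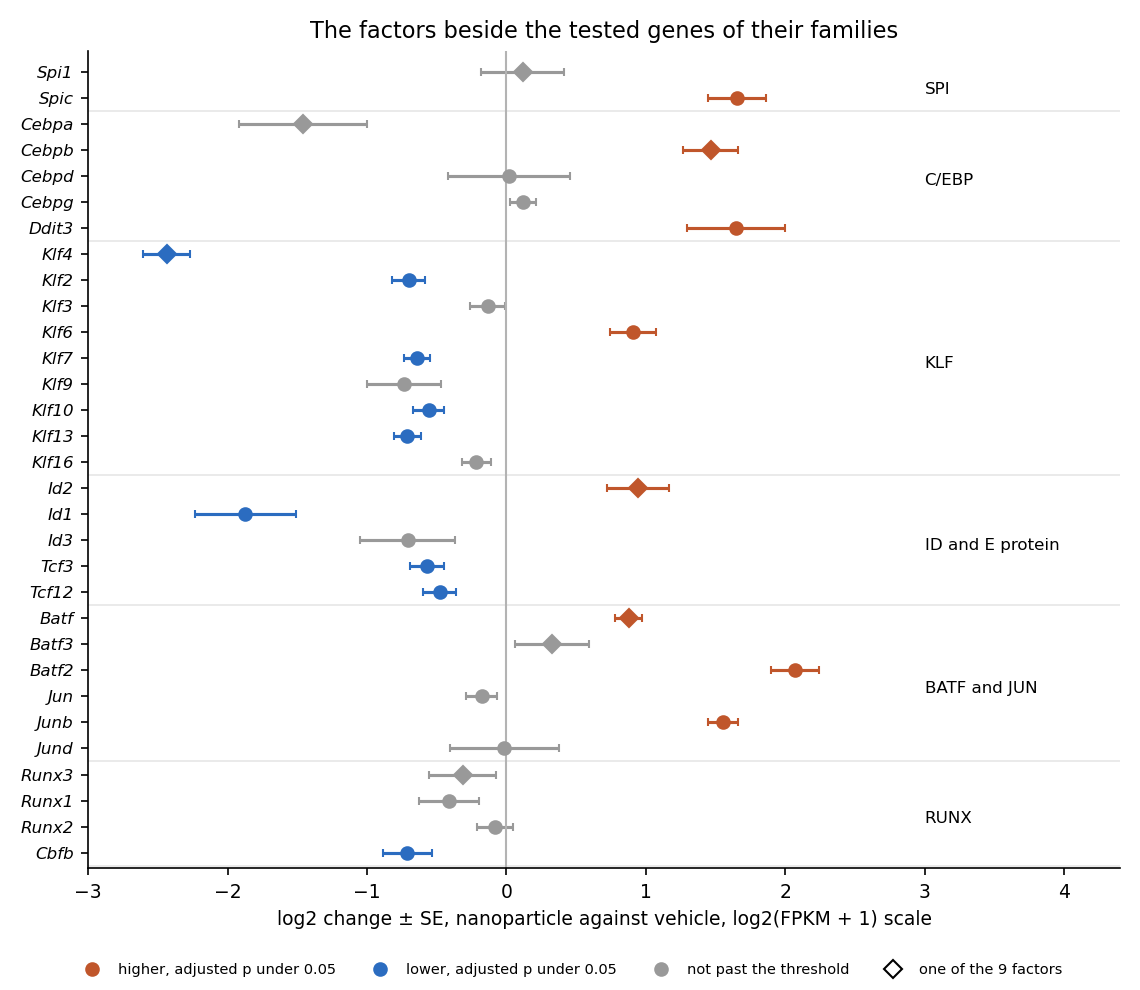
Log2 change with its SE (horizontal axis, log2(FPKM + 1) scale, limma, n = 3 per group) of 8 factors (diamonds) and the 23 tested relatives (circles), by family. Zbtb46 has no listed relative and is not drawn, and orange, blue and grey mark higher, lower and not past the threshold.

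A further 44 myeloid transcription factors were listed, of which 31 were tested, 6 rose, 13 fell and 12 did not pass (median log2 change -0.14, and -0.18 without nanoparticle library 1). Among all tested genes 17% rose and 16.2% fell. Mycl, 1 of those that fell, entered only through the vehicle libraries. Hhex, a homeobox factor, fell by 1.10, whereas Relb, the NF-kB subunit of mature dendritic cells, rose by 2.03 and Nr4a3, an orphan nuclear receptor of migratory dendritic cells, by 2.05. Without nanoparticle library 1 there were 9 higher and 15 lower, where 64.8% of all tested genes passed. With an equal sum of FPKM there were 2 and 16, where all tested genes split 881 higher and 4307 lower.

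Of 31 macrophage core genes 30 were tested, and 10 rose, 10 fell and 10 did not pass (median log2 change -0.15, and -0.18 without nanoparticle library 1). Among all tested genes 17% rose and 16.2% fell. Cd14, the lipopolysaccharide co-receptor, rose by 3.11 and Slc7a2, an arginine transporter, by 3.56, while Myo7a, an unconventional myosin, fell by 0.94 and Pla2g15, a lysosomal phospholipase, by 1.02. The split was 11 higher and 13 lower without nanoparticle library 1, where 64.8% of all tested genes passed. It was 3 and 15 with an equal sum of FPKM, where all tested genes split 881 higher and 4307 lower. Of 12 type 2 dendritic cell markers 10 were tested, 1 rose and 5 fell, with a median log2 change of -0.90 (-0.58 without nanoparticle library 1). Cd209a and Clec4a4 entered only through the vehicle libraries, so they had to be lower with nanoparticles. Of the 8 that reached 1 FPKM in both groups, 1 rose and 3 fell. The median log2 ratio of means was -1.38 with Cd209a, at 3 reads or fewer in the nanoparticle libraries, set at its bound. The lectin Clec10a fell by 2.15, the lectin Mgl2 fell by 1.91, and Pdcd1lg2, the ligand PD-L2, rose by 0.93. Without nanoparticle library 1, 2 rose and 6 fell, again beside 64.8% of all tested genes. With an equal sum of FPKM 1 rose and 8 fell, beside the same 881 and 4307 of all tested genes.

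**Figure D5:**
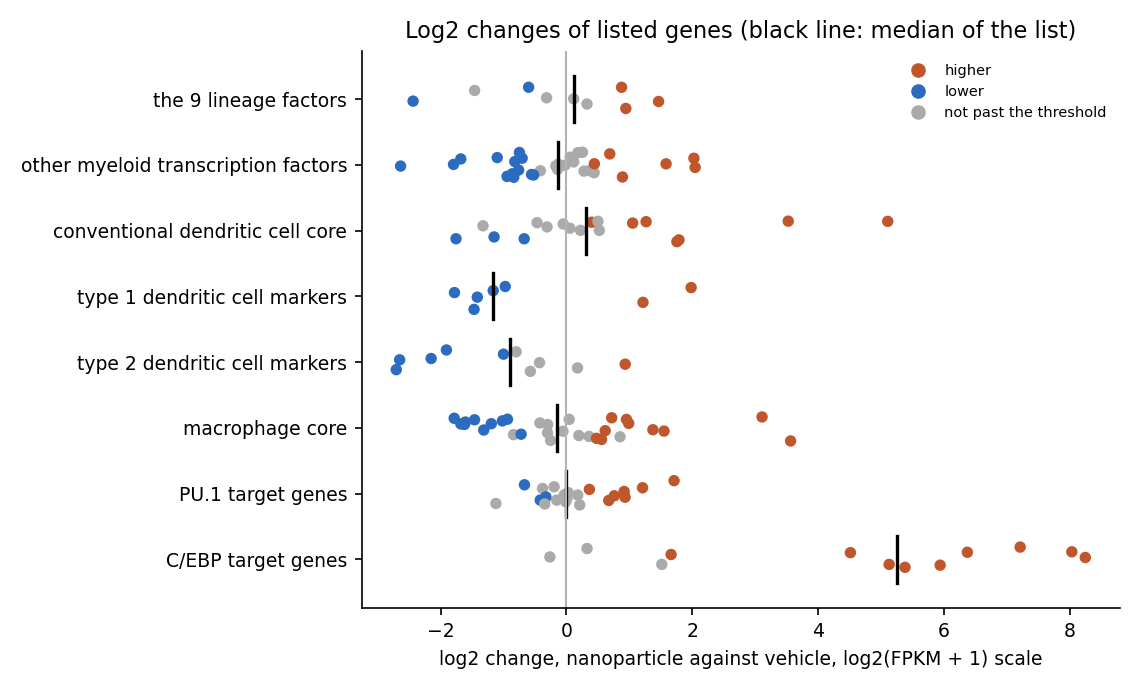
Log2 change of each tested gene of the fixed lists (horizontal axis, log2(FPKM + 1) scale), with the median of each list as a black line. The medians run from -1.16 for type 1 dendritic cell markers to 5.26 for listed C/EBP targets, and that of the 9 factors is 0.12. Of the 12 tested C/EBP targets, 6 entered only through the nanoparticle libraries.

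Markers of some other cell types moved with the treatment. The summed level of 14 neutrophil markers was 42.3 to 52.1 FPKM in vehicle and 56.0 to 150 with nanoparticles, most of it S100a8, which rose by 1.16 (limma adjusted p = 0.0216, a call lost without any one vehicle library or nanoparticle library 2). S100a8 averaged 34.9 ± 1.32 FPKM in vehicle and 83.1 ± 30.0 with nanoparticles, above Klf4, Runx3, Batf, Batf3 and Zbtb46 in both groups. Over all 6 libraries the other tested neutrophil markers, S100a9 (limma adjusted p = 0.246) and Mcemp1 (limma adjusted p = 0.462), did not pass, and their groups overlapped. All 3 rose without nanoparticle library 1, where 64.8% of all tested genes passed. Among granule genes, Elane and Mpo were at 0 in all vehicle libraries. Ngp was at most 0.901 FPKM in vehicle and 0.0501, 4.30 and 3.23 in nanoparticle libraries 1, 2 and 3. Camp was at most 0.190 in vehicle and then 0.242, 1.83 and 1.99. Other neutrophil markers below the filter did not go with these. Cxcr2 averaged 0.653 ± 0.224 FPKM in vehicle and 0.0530 ± 0.0750 with nanoparticles, and Stfa2l1 0.943 ± 0.0939 and 0.687 ± 0.724. Retnlg and Ly6g were at most 0.207 and 0.192 in any library. The 8 mast cell and basophil markers summed to 0.591 to 1.96 and 8.28 to 24.3 FPKM, in the nanoparticle libraries mostly Hdc, histidine decarboxylase, which rose by 3.101. The 8 plasmacytoid dendritic cell markers summed to 1.40 to 2.43 and 2.01 to 4.21 FPKM, with Cox6a2 the 1 tested and higher by 1.118, a call lost without vehicle library 1 or 2. Below the filter, Pacsin1 went the other way, at 0.608 to 0.763 FPKM in vehicle and 0.00939 to 0.294 with nanoparticles. So did Ptprcap, at 0.271 to 0.930 and 0.0560 to 0.198. The rest of this list were at most 0.209 FPKM in any library. Hdc and Cox6a2 were below 1 FPKM in every vehicle library and entered the test only through the nanoparticle libraries. T cell markers summed to 2.18 to 2.51 and 1.23 to 1.84 FPKM, and the single one tested, Cd28, fell by 0.93, having entered only through vehicle. No marker of B cells (0.220 to 0.625 and 0.344 to 0.465 FPKM), natural killer cells (0.188 to 0.436 and 0.0173 to 0.343), erythroid cells (0.286 to 0.787 and 0.132 to 0.230) or stroma (0.430 to 0.624 and 1.52 to 4.64) reached the filter. The defining genes Cd3e, Ncr1, Siglech and Col1a1 rested on 3 reads or fewer in every library. The part of these cells in the results was not tested.

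The genes whose levels over the 6 libraries were most like each factor were found by the root mean squared difference of centred log2(FPKM + 1) values, as a description. Vdac2 and Lrfn4 were nearest to Spi1 (0.0260 and 0.0284), and Bcl7c and Srp9 to Batf3 (0.0233 and 0.0306). These follow the same split, with nanoparticle library 1 below vehicle and libraries 2 and 3 above, and 867 and 885 genes lay within 0.2 of Spi1 and Batf3. Spi1 and Batf3 were also the closest pair among the 9 factors (0.113). For Cebpa the nearest were Tspan14 (0.0448) and F630028O10Rik (0.0699), and 32 genes lay within 0.2.

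Psat1 and Enah were nearest to Zbtb46, Isoc2a and Pex16 to Id2, Gsap and Ncf4 to Batf, and Herc1 and Pkd2 to Runx3. Cebpb had Gm35037 (0.0631) and Mab21l3 (0.119), with 21 genes within 0.2. No gene came within 0.2 of Klf4, whose nearest was Asf1b, a histone chaperone, just past that cut (0.203). The difference is not scaled by the size of a change. Factors with large changes, such as Klf4, therefore tend to have fewer genes within 0.2 than those with small changes.

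The promoters of the factors were read for short motifs, whether or not the factor passed the test, and those of 4 that passed are shown so that their sequences can be compared. RefSeq promoter windows (GRCm38.p6, 250 bases before to 50 after a start) were found for 8 of the 9 factors, 9 windows in all, with Runx3 having 2. The windows of the 3 factors that rose and of Klf4 are shown from 5′ to 3′ on the gene's strand up to the start, with 7 further bases for Klf4. Capitals mark matches to the NF-kB motif, GGGA and CC with any 4 bases between them, on either strand. The window of Zbtb46 is not shown, since its RefSeq start lies 35.0 kb inside the gene as annotated by GENCODE.
Cebpb, chr2:167688665-167688914, plus strand: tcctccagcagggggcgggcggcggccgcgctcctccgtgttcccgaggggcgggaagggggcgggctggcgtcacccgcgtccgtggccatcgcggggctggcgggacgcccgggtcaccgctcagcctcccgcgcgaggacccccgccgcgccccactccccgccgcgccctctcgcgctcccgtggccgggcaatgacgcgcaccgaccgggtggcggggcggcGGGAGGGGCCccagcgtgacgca
Id2, chr12:25096093-25096342, minus strand: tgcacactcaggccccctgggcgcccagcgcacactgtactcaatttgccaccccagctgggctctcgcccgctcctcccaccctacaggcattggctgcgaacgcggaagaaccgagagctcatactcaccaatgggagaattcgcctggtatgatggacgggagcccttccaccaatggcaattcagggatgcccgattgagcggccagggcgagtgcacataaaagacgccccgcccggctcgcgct
Batf, chr12:85686470-85686719, plus strand: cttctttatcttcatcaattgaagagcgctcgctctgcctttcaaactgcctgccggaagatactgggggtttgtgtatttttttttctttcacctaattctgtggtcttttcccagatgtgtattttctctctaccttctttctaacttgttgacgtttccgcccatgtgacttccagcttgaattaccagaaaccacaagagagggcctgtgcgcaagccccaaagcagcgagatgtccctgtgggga
Klf4, chr4:55532469-55532725, minus strand: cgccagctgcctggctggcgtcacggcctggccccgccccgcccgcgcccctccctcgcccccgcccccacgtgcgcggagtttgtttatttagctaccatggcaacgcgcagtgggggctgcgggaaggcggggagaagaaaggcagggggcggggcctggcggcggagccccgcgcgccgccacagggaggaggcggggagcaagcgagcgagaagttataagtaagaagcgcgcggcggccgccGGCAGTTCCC

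Counting the start base as 0, the Cebpb match lies at -23 to -14 and the Klf4 match, on the other strand from the gene, at -3 to 6. Thus the motif occurred in 2 of 9 windows, one of a factor that rose and one of a factor that fell, and in 20.7% of all 32851 promoters. The looser form, GGG and CC with any 5 bases between them, which contains it, was in 6 of 9 windows and in 50.8% of all. The AP-1 motif TGANTCA was in 1 window, that of Zbtb46 (7.81% of all), and the ETS motif GAGGAA in that of Batf3 (28.3%). With its start 35.0 kb inside the gene, the Zbtb46 window may not be the promoter in use, though it is counted among the 9. No window held the C/EBP motif TTGCNNCAA (2.08% of all), its short form TTGCNNAA (10.8%) or the interferon response motif, GAAA, any 2 bases and GAAA (3.44%). The RUNX motif ACCACA was in 2 windows (16.8% of all), 1 of Runx3 and that of Batf, and the KLF motif CACCC in 8 (57.5%), that of Zbtb46 included. Both strands were searched over the 300 bases. A match is a description of the letters, not of binding.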

How the data were processed

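RNA was sequenced from 3 vehicle and 3 nanoparticle libraries, grouped by their treatment labels. The authors deposited 2 tables of 23398 genes whose 140388 values are identical. No label names the unit. The deposited values were taken as FPKM, because 95.8% to 96.1% of them per library came out as whole reads (within 0.01) after multiplying by GENCODE M21 exon length (573 of 575 mismatched lengths could be solved for) and 1 scale per library. Per the submitters' processing notes, CASAVA, STAR 2.5, HTSeq, edgeR 3.16.5 and DESeq2 2 were named, with builds mm10 and hg19. The deposited scaling matched median-of-ratios factors within 0.0959%, so it assumes that most genes do not change.

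Genes that reached 1 FPKM in 3 or more libraries were tested with limma 3.58.1 in R 4.3.3 (lmFit, eBayes with trend) on log2(FPKM + 1) with group as its term and Benjamini-Hochberg adjustment over 10682 genes. This scale understates changes of low genes. The fit was tested on data simulated with the spread of the vehicle libraries alone. It was not tested at the wider spread of the nanoparticle libraries. Ratios used exact permutation tests (scipy 1.17.1, Python 3.11.15, numpy 2.4.6, pandas 2.3.3), and figures matplotlib 3.10.9. Read counts cover counting error only, and 3 reads served as the floor.

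The 9 factors and 16 gene lists were chosen with earlier results of these data known, the lists from general knowledge. Genes named from a list are up to 4 past the threshold with groups apart and the smallest adjusted p, from a family the relative with the largest change past it, and for likeness the 2 nearest genes. Some genes that the rule names are not reported here. Tmem189, Itgax, Lyz2, Flt3, Xcr1, C1qb, Csf1r, Adgre1, Naaa, Clec9a, Napsa and Arsg were named outside this rule, after their values were seen. So were the other neutrophil markers, the genes that entered through 1 group, the marker genes near 0 and the other marker genes below the filter. Tcf3, Tcf4, Tcf12 and Runx1 were named as parts of the ratios. Positions are from GENCODE M21 on GRCm38. Alternatives covered the pseudocount, the filter, the scaling, the trend, library weights, a replicate term, each library left out, and limma-voom on recovered reads.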

Additional observations from a re-analysis of the deposited data

How the results depend on the processing

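Batf, Cebpb and Klf4 kept their direction and their call under all 18 alternatives. Leaving out 1 library gave 2141 to 6923 genes and 3 to 9 of the 9 factors past the threshold, the highest without nanoparticle library 1 and the lowest without a vehicle library (2226, 2188 and 2141 genes without vehicle 1, 2 and 3, and 3 factors each time). Ranges of the log2 change with 1 library left out were -0.074 to 0.46 for Spi1, reversed at -0.043 without nanoparticle library 2 and at -0.074 without library 3, -0.70 to -0.47 for Zbtb46, 0.80 to 1.18 for Id2, 0.14 to 0.64 for Batf3, -1.77 to -0.90 for Cebpa and -0.58 to -0.10 for Runx3. Library weights (arrayWeights, which did not reach its convergence tolerance) gave 8716 genes and 9 factors, with Spi1 at 0.43, Batf3 at 0.59, Cebpa at -0.96 and Runx3 at -0.43 now past the threshold. With an equal sum of FPKM, Spi1 (-0.35) and Batf3 (-0.10) reversed and Cebpa (-1.92) passed. With upper quartile scaling Spi1 (-0.10) reversed and Cebpa (-1.67) passed. With quantile normalization Spi1 (-0.44) reversed, Cebpa (-1.89) passed and Id2 (0.37) did not, and with recovered read totals Spi1 (-0.23) reversed, Cebpa (-1.80) passed and Id2 (0.60) did not. The cause of these differences was not tested. Zbtb46 lost its call with no filter (-0.60, adjusted p = 0.0508, limma over more genes) and has no value with the filter of 5 FPKM. Over all genes the calls split into 1817 higher and 1733 lower, into 881 and 4307 with an equal sum of FPKM, 1318 and 2720 with the upper quartile, 1556 and 2245 with quantile normalization, and 1108 and 3617 with read totals. The looser NF-kB motif was in 6 windows in place of 2. Limma-voom on recovered reads, and the list splits under other settings, were chosen after seeing the data, and voom gave 3579 genes. Deviations of same-numbered libraries correlated at 0.0654, 0.113 and -0.0577, so the numbers were not taken as pairs. Vehicle 3 and nanoparticle 3 did not correlate best with their own number. With the replicate number as a block, 2785 genes and the same 5 factors passed, 3 higher and 2 lower, and no factor changed its call. The block moved the PU.1 targets to 4 higher and 1 lower and the macrophage core to 6 and 10, and Tcf12 lost its call.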
